A study of Homo sapiens with 2 samples.

Results

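Wide peaks of active YAP are the subject here: the 794 intervals of 900 bp or more among the 9393 peaks called from chromatin bound by Flag-tagged YAP-5SA, or 8.45% of the list. They were chosen by width alone, as the end less the start of each interval, and the other 8599 intervals are called narrower peaks below. Width was read from the same library as every other value, so the comparisons of wide with narrower peaks are descriptions without a test.

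YAP is a transcriptional co-activator of the Hippo pathway. It has no DNA-binding domain of its own and reaches chromatin mainly through TEAD transcription factors, many of whose sites lie in enhancers. The kinases LATS1 and LATS2 phosphorylate YAP on serines and so keep it out of the nucleus; in the 5SA mutant these serines are alanines and the protein escapes this control. An interval called by a peak caller is a stretch in which read coverage passed its threshold, and its summit is the place of highest coverage within it. One summit is listed per interval, however wide it is.

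The series held 1 ChIP library and 1 input DNA library from MCF10A cells that expressed Flag-YAP-5SA. MCF10A is an immortalised human mammary epithelial line; 1 label calls it non-transformed and another calls it a breast cancer line. Cells were grown in DMEM/F12 with horse serum, EGF, insulin, hydrocortisone and cholera toxin, fixed in 1% formaldehyde for 15 min and sonicated, and the tagged protein with its DNA was pulled down from 50 µg of chromatin on Flag-M2 beads. The pull-down was directed by the tag at the introduced mutant protein. The series held no pull-down from cells without the tag, so other DNA held by the beads cannot be told apart. For the promoter that drove the mutant protein and whether the line was 1 clone, nothing is given in the sources used here. There was no replicate, the read depth is unknown, and input reads were not analysed here.

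Wide peaks formed the upper tail of a single distribution of widths. Their median width was 1044 bp (interquartile range 959 to 1180 bp), against 597 bp (512 to 681 bp) in narrower peaks. They covered 882 kb, or 14.6% of the 6030 kb in all intervals. Most were only moderately wide: 300 measured 900 to below 1000 bp, 312 measured 1000 to below 1200 bp, 128 measured 1200 to below 1500 bp and 54 measured 1500 bp or more. No step in number marked the threshold, with 69 peaks from 900 to below 920 bp and 82 from 880 to below 900 bp. The height of a peak is the authors' score at its summit, a whole number with no unit given, and the median heights of these classes were 23 and 25.

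**Figure D1:**
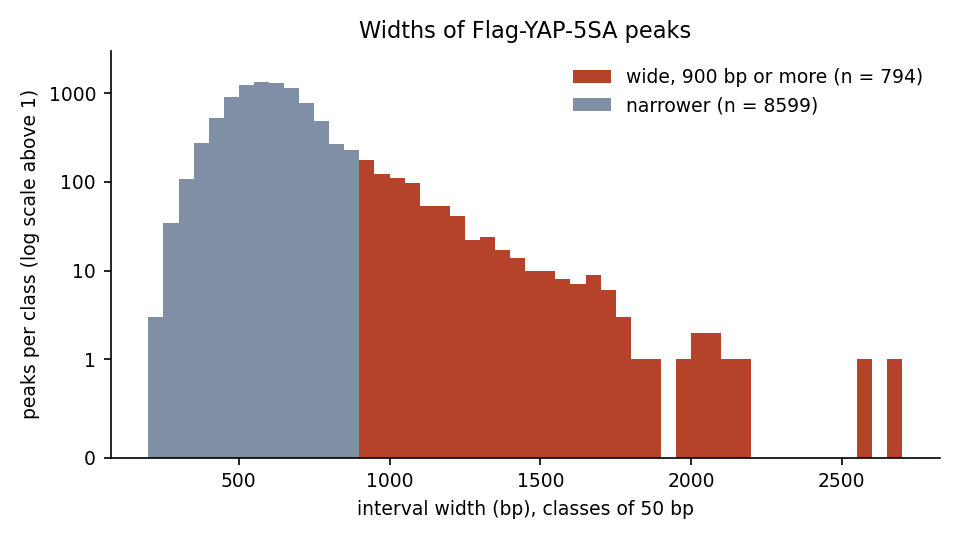
Number of peaks in each 50 bp class of interval width, on a scale that is logarithmic above 1, for the 794 wide peaks and the 8599 narrower peaks. The counts decline without a break at 900 bp, and the last 2 wide peaks, of 2588 and 2669 bp, stand beyond all others.

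The members nearest to the threshold varied in shape. The narrowest member lay at chr5:172227966-172228866 (hg19, as all positions here), measured 901 bp and had a height of 38. The widest peaks left out measured 898 bp, and the tallest of these lay at chr5:178061988-178062885 with a height of 46. The summit of the narrowest member had 483 and 418 bp on its sides, and that of the peak left out had 445 and 453 bp, so both were nearly central. By contrast, the member at chr8:67424510-67425411, of 902 bp, was lopsided, with 163 and 739 bp. The median ratio of the longer to the shorter flank was 1.85 from 900 to below 1000 bp and 1.46 from 800 to below 900 bp.

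Most of the 10 widest peaks were lopsided, about as often as wide peaks in general, and most had other peaks close by. Of the 10 widest, 6 reached at least 2 times as far on one side of the summit as on the other. The share was 55.0% among all wide peaks and 55.6% among those of 1500 bp or more. Another interval lay within 12500 bp of 8 of the 10, against 34.4% of all wide peaks and 53.7% of those of 1500 bp or more. The heights of the 10 widest ran from 23 to 63 with a median of 38.5, and 5 of them were 40 or more. No peak is assigned to a gene here, because an annotation of hg19 was not used.

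The widest of all lay at chr8:128234681-128237349. It measured 2669 bp at a height of 33, and its summit sat near the left end, with 296 bp before it and 2373 bp after it. Another wide peak, of 997 bp and height 11, lay 11612 bp away from it. The second widest was of a different shape: the 2588 bp peak at chr5:167791088-167793675, of height 49, ran 1105 bp to one side and 1483 bp to the other. No other peak of the list reached so far on its shorter side.

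The next widths were 2160, 2127, 2079 and 2060 bp. The peak at chr6:53329463-53331622 was the lowest of the 10 widest, with a height of 23. That at chr12:53318656-53320782 had a height of 30 and was separated by 68 bp from a peak of height 21. The peak at chr17:18162923-18165001, also of height 30, was the most lopsided wide peak, with 150 bp before the summit and 1929 bp after it. On chromosome 19, the peak from 41221220 to 41223279 had a height of 44 and extended 477 and 1583 bp.

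The remaining 4 of the 10 widest included the tallest of them. On chromosome 1, the peak from 145113471 to 145115477 measured 2007 bp and had a height of 63, with 1218 and 789 bp beside the summit. The 2039 bp peak at chr2:217236661-217238699, of height 25, was the most isolated of the 10, with its nearest neighbour 161354 bp away. A 1961 bp peak at chr3:134045585-134047545 had a height of 53. The 1850 bp peak at chr8:128821439-128823288 had a height of 59, and the next interval began 37 bp from its edge.

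**Figure D2:**
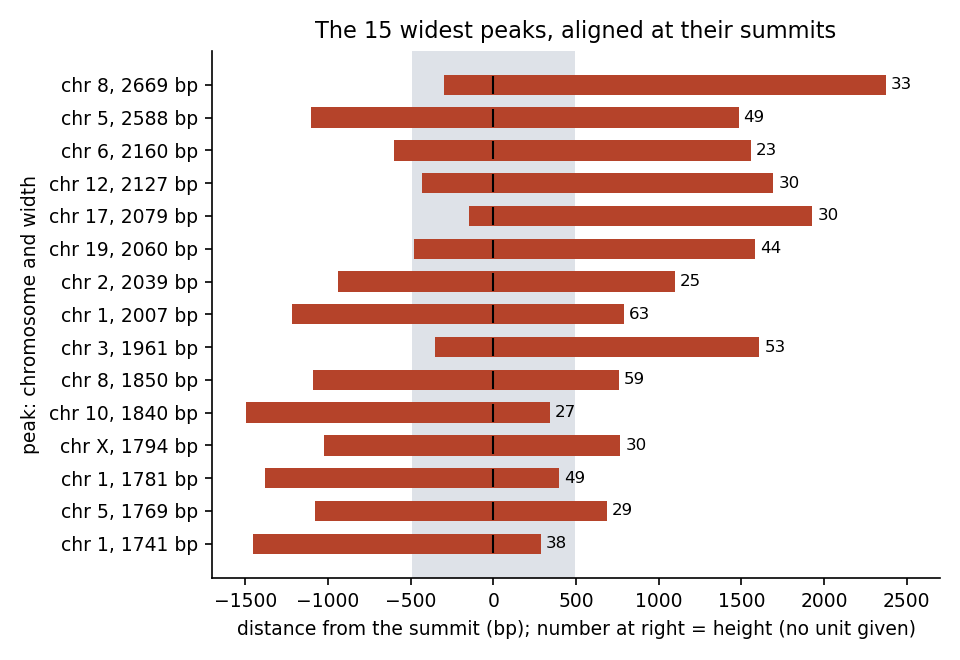
The 15 widest peaks as bars aligned at their summits (black ticks), with distance from the summit in bp on the horizontal axis and the height beside each bar. The shaded band spans 495 bp to each side, a reach that the longer side exceeds in at most 5% of narrower peaks. Every bar leaves it on at least 1 side. The peaks of 2669, 2127, 2079, 2060, 1961, 1840, 1781 and 1741 bp leave it on 1 side only. On that side, those of 2669, 2127 and 2079 bp reach 2373, 1694 and 1929 bp.

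Summits of wide peaks were off-centre, and most of the added width lay on 1 side. The distance from the summit to the nearer edge, called the shorter flank, had a median of 348 bp in wide peaks and 253 bp in narrower peaks, a difference of 95 bp. The longer flank had a median of 713 bp in wide peaks and 342 bp in narrower peaks, a difference of 371 bp. At 800 to below 900 bp the medians were already 342.5 bp for the shorter and 506 bp for the longer flank. At 900 to below 1000 bp they were 331 and 611 bp, so the difference in the shorter flank was not particular to wide peaks. In 437 wide peaks, or 55.0% (95% Wilson interval 51.6 to 58.5), the longer flank was at least 2 times the shorter, against 992 narrower peaks, or 11.5% (10.9 to 12.2). Among narrower peaks of 800 to below 900 bp this share was 23.8% (20.3 to 27.7). Wilson intervals here and below cover counting error only, and neighbouring peaks are not independent.

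Part of this follows from the rule, because an interval of 900 bp must have a longer flank of at least 450 bp, near the 495 bp that 95% of narrower peaks did not exceed. The choice of members thus sets a lower limit to the longer flank, which still ran from 455 to 2373 bp in wide peaks. Members are divided here by the shorter flank. It stayed within 357 bp, the limit that 95% of narrower peaks did not pass, in 439 wide peaks (55.3%), which are called extended on 1 side. In another 342 (43.1%) both flanks passed their limits, and in 13 the longer flank did not. Peaks extended on 1 side had a median width of 1017 bp, a median height of 23 and a height of 40 or more in 8.20%. Those extended on both sides had medians of 1107.5 bp and 29, with 23.7% at 40 or more. Of the 118 wide peaks of height 40 or more, 81 were of this kind and 36 were extended on 1 side only.

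The longer side of wide peaks pointed up and down the chromosome about equally often. The shorter flank was the one at the lower coordinate in 404 wide peaks, or 50.9%, and in 5239 narrower peaks, or 60.9%. Among narrower peaks of 800 to below 900 bp the share was 50.4%, so the even split was not particular to wide peaks. Summits are listed at steps of 32 bp for most peaks, which is small beside the flanks of wide peaks. It is not small beside the difference between the flanks of many narrower ones. Whether this step has a part in the 60.9% was not tested.

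**Figure D3:**
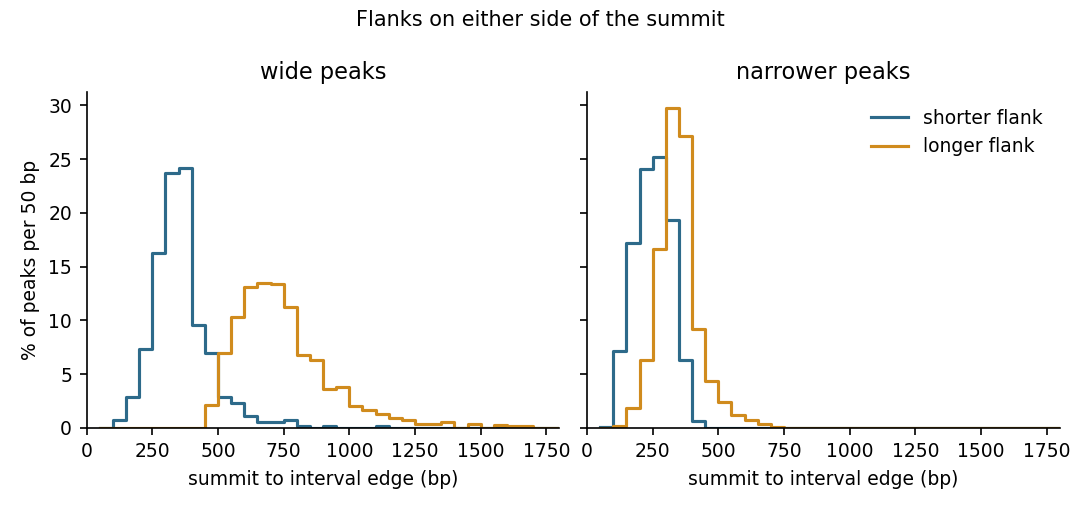
Distribution of the shorter and the longer flank, from the summit to the interval's edges in bp, as the percentage of peaks per 50 bp for wide peaks (left) and narrower peaks (right). In wide peaks the shorter flank spreads less around its median of 348 bp (SD 109 bp) than the longer flank around 713 bp (SD 198 bp). In narrower peaks the distributions overlap, with medians of 253 and 342 bp, and the SD of the shorter flank is only 67.0 bp.

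Very unequal flanks were more frequent in wider members, and so was extension to both sides. The latter is in part set by width itself, as given at the end of this paragraph. The longer flank was at least 3 times the shorter in 17.6% of wide peaks (15.1 to 20.4) and in 1.99% of narrower peaks (1.71 to 2.31). Among narrower peaks of 800 to below 900 bp it was so in 7.86% (5.81 to 10.6), an interval that overlaps that of the next class. Among wide peaks the share was 11.3% (8.22 to 15.4) at 900 to below 1000 bp and 16.7% (12.9 to 21.2) at 1000 to below 1200 bp. It was 23.4% (16.9 to 31.5) at 1200 to below 1500 bp and 44.4% (32 to 57.6) at 1500 bp or more. The median longer flank over the same 4 classes was 611, 736.5, 905 and 1167 bp, while the median shorter flank was 331, 341.5, 378 and 469.5 bp. The share with a longer flank at least 2 times the shorter did not follow this order, with 41.3%, 62.8%, 67.97% and 55.6% over the classes. A shorter flank longer than that of any narrower peak was found in 15 of 300, 39 of 312, 41 of 128 and 31 of 54 peaks. In the widest class 19 of 54 peaks had at least 600 bp on both sides of the summit, or 35.2%. The flanks of a peak add up to its width, so the width rule caps the shorter flank of narrower peaks. Its maximum there was 445 bp. The cap rises from class to class, and a peak below 1200 bp cannot have 600 bp on both sides. These counts therefore cannot show how much of the rise goes beyond width.

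Wide peaks were slightly taller in the middle of their distribution and differed more at its ends. Their heights ran from 10 to 99 with a median of 25 and an interquartile range of 19 to 34; narrower peaks ran from 9 to 100 with a median of 24 and an interquartile range of 19 to 30. The mean was 27.95 ± 12.2 (SD over 794 peaks) for wide peaks and 25.6 ± 9.30 (SD over 8599 peaks) for narrower peaks. Of the wide peaks 118, or 14.9% (12.6 to 17.5), were 40 or more in height, against 696 narrower peaks, or 8.09% (7.54 to 8.69). At the low end, 90 wide peaks, or 11.3% (9.31 to 13.7), had a height of 15 or less, against 654 narrower peaks, or 7.61% (7.06 to 8.18). Wide peaks were therefore over-represented among both the tallest and the lowest peaks of the list. This was not particular to them, because the upper width classes of narrower peaks had similar shares. At 800 to below 900 bp, 13.5% of peaks were 40 or more in height and 14.3% were 15 or less. At 700 to below 800 bp these shares were 14.8% and 8.81%.

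The share of wide peaks had its minimum among peaks of ordinary height. At heights of 9 to 12, 14.1% of peaks were wide (9.31 to 20.8), and at 13 to 15 it was 11.6% (9.31 to 14.4). It was lowest at 19 to 22, with 5.79% (4.87 to 6.86). It was 10.5% (8.98 to 12.2) at 31 to 39, 13.5% (10.9 to 16.6) at 40 to 49 and 18.2% (11.5 to 27.5) at 60 or more, where 16 of 88 peaks were wide. Of the 20 tallest peaks of the list, 7 were wide.

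**Figure D4:**
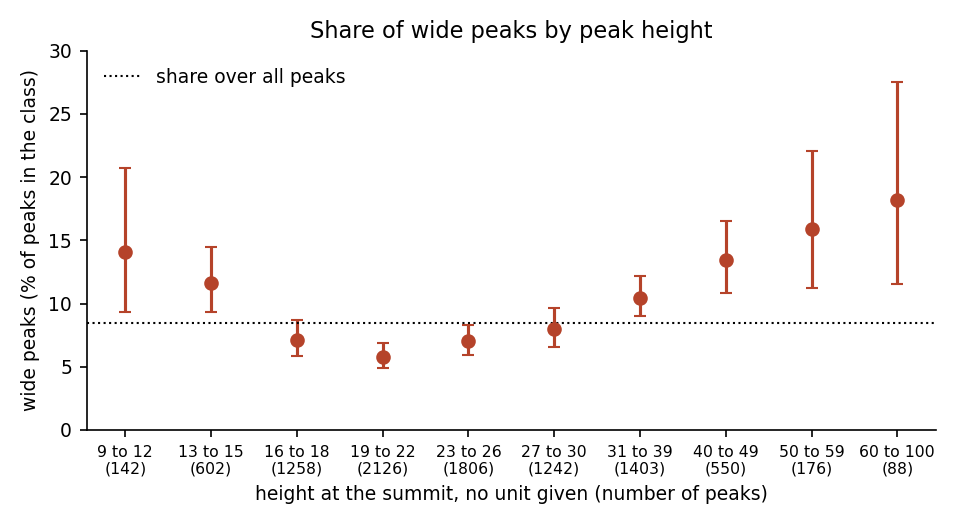
Share of wide peaks in 10 classes of height, with 95% Wilson intervals and, as a dotted line, the 8.45% over all peaks. The share is lowest at heights of 19 to 22 and higher at both ends, reaching 14.1% at 9 to 12 and 18.2% at 60 or more.

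Within the wide peaks, width and height were only loosely related (Spearman's rho = 0.19 over 794 peaks of 1 library). Median height was 23 at 900 to below 1000 bp, 25 at 1000 to below 1200 bp, 29.5 at 1200 to below 1500 bp and 30.5 at 1500 bp or more. The share at 40 or more was 11.7%, 11.5%, 25% and 27.8% over the same classes, and the share at 15 or less was 13.3%, 13.1%, 5.47% and 3.70%. The low wide peaks were mostly of moderate width, as were wide peaks in general: 81 of 90 measured less than 1200 bp. Of all 794 wide peaks, 300 measured 900 to below 1000 bp and 312 measured 1000 to below 1200 bp. The tall wide peaks included 47 of 118 that measured 1200 bp or more. Among all 794, 128 measured 1200 to below 1500 bp and 54 measured 1500 bp or more.

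The tallest wide peak lay at chr10:73526371-73527417, with a height of 99 and a width of 1047 bp. A wide peak of height 32 and 1397 bp followed 5516 bp further on. The second tallest, at chr20:60936194-60937782, had a height of 91 and a width of 1589 bp, and it reached 863 and 726 bp from the summit. Chromosome 10 also held an adjacent pair of tall wide peaks, from 73839941 to 73840878 with a height of 81 and from 73840914 to 73842578 with a height of 74. These were 35 bp apart, and together they spanned 2638 bp.

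The other 6 of the 10 tallest members lay on chromosomes 1, 2, 15, 18 and 19. The tallest of them, at 77, was the peak at chr1:144989173-144990099, in an interval of 927 bp. The peaks at chr1:247578560-247579739 and chr18:44125946-44127269 both had a height of 71. The remaining 3 of the 10 tallest lay at chr19:46714262-46715268, with a height of 68, and at chr15:101899054-101900143 and chr2:28021655-28022659, each with a height of 66. None of the 16 wide peaks of height 60 or more had a longer flank of 3 times the shorter.

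The lowest wide peaks were spread over several chromosomes. The lowest lay at chr20:2082534-2083461, with a height of 10 and a width of 928 bp. Heights of 11 were found, among others, at chr5:180236728-180237993, chr14:35872796-35874028, chr6:111579643-111580728 and chr8:128222072-128223068. The last of these is the low neighbour of the widest peak of the list. Across the 90 wide peaks of height 15 or less, the median width was 1019.5 bp and the longer flank was at least 2 times the shorter in 61.1% (50.8 to 70.5). The 118 wide peaks of height 40 or more had a median width of 1113.5 bp and such flanks in 48.3% (39.5 to 57.2), so the intervals of these shares overlap.

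Wide peaks more often had another peak close by than narrower peaks did. Another interval lay at most 12500 bp from the edge of 273 wide peaks, or 34.4% (31.2 to 37.8), against 1897 narrower peaks, or 22.1% (21.2 to 22.9). This share rose with width already among narrower peaks, from 11.8% at 200 to below 400 bp to 30.6% at 800 to below 900 bp. In wide peaks it was 33.3% at 900 to below 1000 bp and at 1000 to below 1200 bp. It was 31.25% at 1200 to below 1500 bp and 53.7% at 1500 bp or more. At 1 kb the shares were 10.5% (8.51 to 12.8) of wide peaks and 4.78% (4.35 to 5.25) of narrower peaks, and at 50 kb 62.5% (59.05 to 65.8) and 46.7% (45.7 to 47.8). A wide interval is by its width closer to its neighbour, but between summits the shares within 12500 bp were still 32.7% (29.6 to 36.1) of wide peaks and 21.5% (20.6 to 22.4) of narrower peaks. Within 1 kb between summits, 2.14% (1.34 to 3.402) of wide peaks and 2.31% (2.02 to 2.65) of narrower peaks had another summit, with intervals that overlap. The width of an interval itself limits how near another summit can lie, so the comparison at 1 kb cannot rank the groups. The median distance to the nearest summit was 27688 bp for wide peaks and 58640 bp for narrower peaks.

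Within classes of height, wide peaks again had the higher share with a neighbour, although the intervals were apart only at middle heights. At heights of 19 to 30, 32.7% (28.0 to 37.8) of wide peaks and 20.5% (19.4 to 21.7) of narrower peaks had another summit within 12500 bp. At 31 to 39 the shares were 41.5% (33.8 to 49.6) and 23.01% (20.8 to 25.4), in the same order. At 9 to 18 they were 25% (19.2 to 31.8) of wide peaks and 21.4% (19.6 to 23.3) of narrower peaks, and at 40 or more 33.9% (25.99 to 42.8) and 25.7% (22.6 to 29.1), with intervals that overlap. With chromosomes 1, 5, 8, 19 and 20 left out, on which wide peaks were frequent, 30.2% of wide peaks and 20.5% of narrower peaks had another interval within 12500 bp.

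Neighbours of wide peaks tended to be wide as well. Of the 273 nearest intervals within 12500 bp of a wide peak 67, or 24.5%, were wide, against 210 of the 1897 nearest to a narrower peak, or 11.1%. These counts are per peak, so peaks that were each other's nearest interval were both counted. Wide peaks at most 12500 bp apart with no other peak between them formed 38 pairs. The median width of the neighbour was 724 bp beside wide peaks and 639 bp beside narrower peaks. Wide peaks did not dominate their neighbours in height: 133 were taller than the nearest interval, 127 were lower and 13 were equal.

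When wide peaks alone were joined across gaps of at most 12500 bp, 86 of them (10.8%) fell into 40 groups. The largest group, at chr1:228716985-228733568, held 4 wide peaks and 1 narrower peak, all of the wide ones at heights of 20 to 22. Groups of 3 lay at chr5:148344982-148359200, with heights from 13 to 45, and at chr5:167715191-167742542, with heights from 24 to 46. The others were at chr3:57955305-57964549 and at chr1:16469844-16473848. The last of these was the tightest, with 3 wide peaks of heights 16 to 36 in 4005 bp.

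In 15 pairs the gap between wide peaks was under 1 kb, and the smallest gap was 22 bp, in the tight group on chromosome 1. Next came 25 bp in the group of 4 and 35 bp in the tall pair on chromosome 10. A pair at chr20:59759076-59762299, with heights of 31 and 46, was separated by 125 bp, and its summits by only 992 bp. The pair at chrX:43575136-43578892 combined widths of 1794 and 1625 bp with heights of 30 and 31, across a gap of 338 bp. On chr20:45945706-45947949, heights of 47 and 12 stood side by side, 218 bp apart. Whether such pairs are single enrichments split by the caller was not tested.

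Wide peaks were found on all 22 autosomes and on chromosome X, but in unequal shares. Chromosome 19 had the highest, with 39 wide peaks among 224, or 17.4% (13.01 to 22.9), against 8.23% of peaks elsewhere. Chromosome 20 had 59 of 355, or 16.6% (13.1 to 20.8), against 8.13% elsewhere, and chromosome 1 had 120 of 1009, or 11.9% (10.0 to 14.0), against 8.04%. With chromosome 5, at 10.6% (8.60 to 12.99), these were the 4 chromosomes whose interval lay above the 8.45% of the list. Intervals lay below it on chromosomes 2, 3, 6 and 11, the lowest of which was chromosome 11 with 21 of 443, or 4.74% (3.12 to 7.14). Chromosome X had 7 of 165, or 4.24% (2.07 to 8.50).

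The differences between chromosomes were similar when height was held fixed. If each peak had been wide as often as all peaks of its class of height, chromosome 19 would have held 20.0 wide peaks, chromosome 20 32.2 and chromosome 1 87.1. The observed numbers were 1.95, 1.83 and 1.38 times these. On chromosome 20 the median height was 30 for wide peaks and 27 for all of its peaks. On chromosome 19 these medians were 25 and 24, close to those of the whole list, yet the median width of all its peaks was 677 bp, against 611 bp over the whole list. On chromosomes 11 and X the observed numbers were 0.55 and 0.53 times those given by height. DNA copy number was not measured here, and a difference between chromosomes in copy number and one in binding cannot be told apart in this list.

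**Figure D5:**
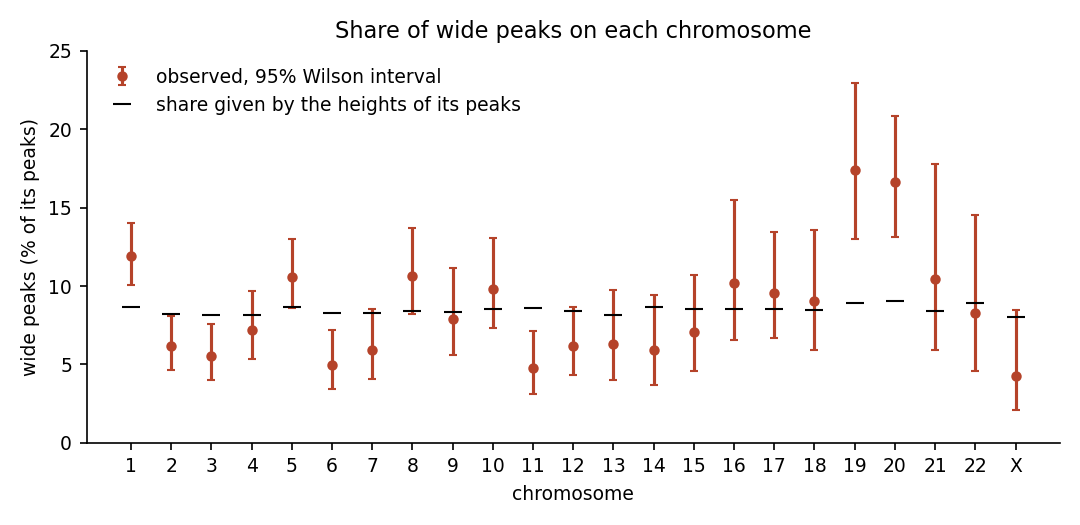
Share of wide peaks among the peaks of each chromosome, with 95% Wilson intervals, and as black dashes the share that the heights of its peaks would give. Chromosomes 19 and 20 lie highest, at 17.4% and 16.6%, while the dashes stay close to the 8.45% of the list on every chromosome.

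A few regions held many wide peaks. In the window of chromosome 8 from 125 to 130 Mb, 16 of 50 peaks were wide, or 32% (20.8 to 45.8), where heights alone would give 5.14. Chromosome 5 from 145 to 150 Mb had 13 of 48, or 27.1% (16.6 to 41.0), and chromosome 10 from 70 to 75 Mb had 11 of 29, or 37.9% (22.7 to 56.0). These 3 windows, which were picked for their number of wide peaks, held 5.04% of all wide peaks and 1.35% of all peaks. In the window on chromosome 8, wide peaks had a median height of 33 and narrower peaks 31.5, and in that on chromosome 10 both medians were 32. On chromosome 5 from 145 to 150 Mb the medians were 37 for wide peaks and 30 for narrower peaks.

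Further windows of this kind were those of chromosome 5 from 170 to 175 Mb with 11 wide peaks among 45, chromosome 1 from 150 to 155 Mb with 10 among 42, and chromosome 19 from 35 to 40 Mb with 9 among 36. At the other end, 136 of the 454 windows of 5 Mb that contained 10 or more peaks had no wide peak. How many such windows the heights of their peaks would leave without a wide peak was not calculated, so the count does not show a lack.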

How the data were processed

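BWA 0.6.1 (a read aligner), MACS (a peak caller) and hg19 are listed in the submitters' processing notes, without further settings; the MACS version, its threshold, duplicate filtering and use of the input were each not given in the sources used here. The deposited file holds a summit track with a score, per the file headers, and an interval track. Width can depend on fragment length, threshold and how nearby windows are joined, none of which is recorded. The score deposited by the authors, whole in all 9393 peaks, is called height. Summits and intervals were joined by line order; all 9393 summits lay inside their interval. Depth is unknown.

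Width is the end less the start as deposited; printed starts are 1-based and so 1 higher. Neighbour distances run between interval edges unless summits are named. Shares carry 95% Wilson intervals. Numbers given by height apply the share of wide peaks in each of 10 height classes. Regions named are the 10 widest, 10 tallest and 5 lowest wide peaks, close wide pairs and those at the threshold; others were chosen after their values were seen. Members and lists were chosen with earlier results of these data known. Genes, motifs and sequences are not reported, since an hg19 genome or annotation was not used. Functions were tested on simulated data. Python 3.11.15, pandas 2.3.3 and statsmodels 0.14.6 were used.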

Additional observations from a re-analysis of the deposited data

How the results depend on the processing

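No paired analysis was possible because only 1 ChIP library was sequenced, and no replicate could be left out. At 1000 bp or more there were 494 wide peaks and at 800 bp or more 1290, by construction. Wide less narrower mean height was 2.39; it was 3.49 at 1000 bp, 2.19 at 800 bp, 3.07 among peaks higher than the median and 2.09 without chromosomes 5, 8 and 20. Among peaks higher than the median, 28.03% of wide and 18.05% of narrower peaks were 40 or more in height, by construction above the main shares. The share with a longer flank at least 2 times the shorter was 63.4% of wide and 12.54% of narrower peaks at 1000 bp, 43.0% and 10.8% at 800 bp, and 50.8% and 8.35% among peaks higher than the median. The share of wide peaks with a neighbour was 21.3% at 5 kb, 47.98% at 25 kb and 62.5% at 50 kb, against 13%, 32.6% and 46.7% of narrower peaks, and 30.2% against 20.5% without chromosomes 1, 5, 8, 19 and 20. None of these alternatives reversed a direction. The share with a neighbour within 1 kb was higher in wide peaks between edges. Between summits the intervals of these shares overlapped, as given above, and no direction is read from them. The alternative without chromosomes 1, 5, 8, 19 and 20 and the comparison within 1 kb were chosen after seeing the data. So were the flank alternatives other than 1000 bp, those for the share of height 40 or more and the numbers given by height. Gene context and motifs were not run. The single library and unknown depth limit all values.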

Other observations

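Summits that lay neither on a multiple of 32 bp nor 16 bp from one were found in 15 of 794 wide peaks, or 1.89%, and in 54 of 8599 narrower peaks, or 0.63%. Low peaks held many of them in both groups: 9 of the 15 belonged to the 90 wide peaks of height 15 or less, and 29 of the 54 to the 654 narrower peaks of such height. None was found in peaks of height 40 or more of either group. Of the 15, 4 belonged to the 54 peaks of 1500 bp or more.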
